A study of Mus musculus with 7 samples.

Results

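The sarcomeric myosin chains were followed in muscle cells that had been incubated with exosomes. The members are 10 genes, the heavy chains Myh1, Myh2, Myh3, Myh4, Myh7 and Myh8 and the light chains Myl1, Myl2, Myl4 and Mylpf, and every non-control probe that the array design names for them was taken. They had 13 probes among the 39429 of the array. Myh3, Myh8 and Myl1 had 2 probes each, and the brighter probe stands for the gene.

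Sarcomeric myosin is the motor of the thick filament. Its heavy chain carries the ATPase head and the tail that packs into the filament, while the essential and regulatory light chains wrap around the neck of the head. Skeletal muscle replaces the embryonic heavy chain Myh3 and the perinatal chain Myh8 with adult slow (Myh7) or fast (Myh1, Myh2 and Myh4) chains as fibres mature, and differentiating C2C12 cells express members of all these classes. The light chains follow a similar scheme, with Myl4 in embryonic and atrial muscle, Myl2 in slow and ventricular muscle, and Myl1 and Mylpf in fast muscle.

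The samples were cultures of C2C12, a mouse line of muscle precursors that fuse into myotubes when serum is withdrawn. In the EXO-Post BSA group (4 arrays, called Exo-BSA in the labels) the cells received exosomes of C2C12 cultures exposed to BSA alone. In the EXO-Post Palm group (3 arrays, called EXO-Palm) the exosomes came from C2C12 cultures exposed to palmitate at 0.5 mmol/l, and no culture without exosomes was analysed here. The design asks whether the palmitate given to the donor cells altered transcripts of the recipient cells. The labels call all recipients myoblasts, the paper calls them myotubes, and the cell line entry of the labels runs upward from C2C12 by 1 with each sample.

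Expression was measured on 1-colour Agilent arrays, from 0.1 µg of RNA per culture. The deposited intensities were taken to log2 after division by the 75th percentile of each array, so that a value of 0 is that percentile and a difference of 1 is a doubling of the signal. The percentile ranged from 549.4 to 1621 intensity units, and 19125 to 27720 probes per array were well above background. The arrays lay on 4 slides. Replicate 1 of EXO-Post Palm shared slide 1 with replicates 1 and 2 of EXO-Post BSA, and replicate 3 of EXO-Post Palm shared slide 3 with replicate 4 of EXO-Post BSA. The remaining 2 arrays had a slide each, so a fit with slide as a block compares the groups on slides 1 and 3 alone. All 10 myotube markers examined, among them Ckm, Acta1, Des and Myog, were detected on every array of both groups, although RNA from a culture cannot tell fewer myotubes from less RNA in each. Signal of a probe depends on its sequence, so levels were compared between groups and never between probes.

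The probes are 60 bases long, and the sequences below show what was measured where probes of a gene, or of related genes, are set side by side. In the first 2 lines capitals mark the bases shared by a Myh3 probe and the bright Myh8 probe, 29 of 48 bases (60.4%) in their best alignment without gaps. They lie at chr11:66915107-66915166 and chr11:67121925-67121984 of the mm9 build, plus strand. The third line is the dim Myh8 probe (chr11:67093475-67093534, plus strand), 28450 bases nearer the start of the gene, and the fourth is the dim Myl1 probe, whose 60 bases span 4248 bases of genome (chr1:66976853-66981100, minus strand) and so cross at least 1 intron. The last 3 lines give the first 30 bases of the bright Myh3 probe (chr11:66915724-66915783, plus strand), of the Myh7 probe (chr14:55589581-55589640, minus strand) and of the Myh2 probe (chr11:67010960-67011019, plus strand), whose groups did not overlap. No capitals are set in these 5 lines. Over the 78 pairs of the 13 probes the longest shared run was 10 bases, between the probes of Myh1 and Myh4.
Myh3, dimmer probe: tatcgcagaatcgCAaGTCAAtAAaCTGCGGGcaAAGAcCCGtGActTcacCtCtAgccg
Myh8, brighter probe: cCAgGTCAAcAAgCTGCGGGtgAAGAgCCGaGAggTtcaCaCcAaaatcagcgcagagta
Myh8, dimmer probe: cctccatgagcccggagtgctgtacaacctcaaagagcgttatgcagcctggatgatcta
Myl1, dimmer probe: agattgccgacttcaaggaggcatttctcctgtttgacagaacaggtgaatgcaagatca
Myh3, brighter probe: ctgacaattctacttaatttccacgtatca
Myh7: atgaggagtagctcttgtgctacccagctc
Myh2: tgattctattccatcctgttgtaaggaaat

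No sarcomeric myosin probe passed an adjusted p of 0.05 in limma, with all 13 above background on all 7 arrays and all 13 tested. Over the array as a whole, 115 of 21589 tested probes passed (0.533%), and 15 of them were lower with EXO-Post Palm (0.0695%). The myosins nevertheless lay on 1 side. The mean of EXO-Post Palm was below that of EXO-Post BSA for 11 of 13 probes, where 52.7% of all tested probes were lower, and for 9 to 13 over the 19 alternative settings. The unadjusted limma p was under 0.05 for 3 of 13, all lower, against 5.19% of tested probes that were lower at this p. In 5 of 13 probes every EXO-Post Palm array lay below every EXO-Post BSA array, as in 5.87% of tested probes. These were both Myh3 probes, the bright Myh8 probe, Myh7 and Myh2. Over the 10 genes, the median log2 fold change was -0.45, beside -0.031 over the 17477 genes tested. The members were chosen with earlier results in view, so no test was made over them as a group. Without EXO-Post BSA replicate 1, the array with the highest myosin values, the median was -0.30.

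**Figure D1:**
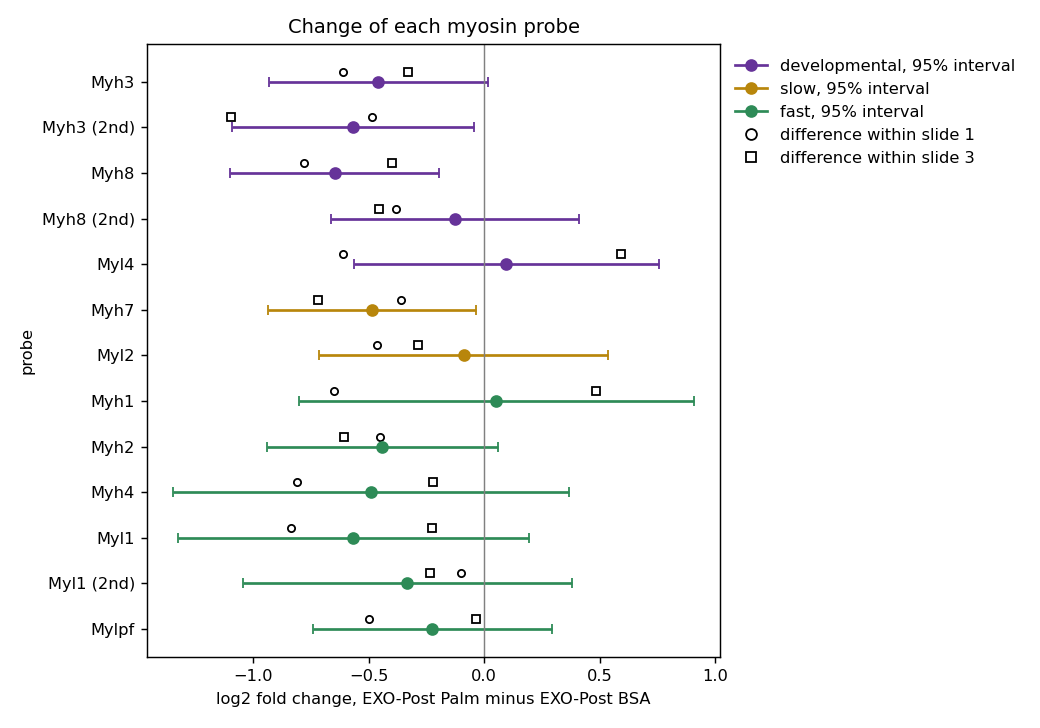
Log2 fold change of each of the 13 myosin probes (3 EXO-Post Palm minus 4 EXO-Post BSA arrays) with its 95% interval from limma, coloured by developmental, slow and fast class; open circles and squares are the differences within slide 1 and slide 3, and the dimmer probe of a gene is marked 2nd. The points lie between -0.65 and 0.095, 11 of 13 of them below 0.

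Of the developmental chains, the bright probes of both heavy chains were lower on every EXO-Post Palm array than on any control, and the light chain Myl4 was not. The bright probe of Myh8, the perinatal heavy chain, gave 7.61, 7.25, 7.25 and 7.21 with EXO-Post BSA (replicates 1 to 4, in this order here and below) and 6.65, 6.59 and 6.80 with EXO-Post Palm (replicates 1 to 3). The groups were 0.40 apart at their nearest arrays, the widest gap of the 13 probes. This is a log2 fold change of -0.65 (standard error 0.20, 95% interval -1.10 to -0.19), or 63.9% of the EXO-Post BSA level. The exact permutation p was 0.0286, the smallest that 4 against 3 arrays allow, and the limma adjusted p of 0.304 was the lowest of the 13 probes. Its size depended on how the signal was corrected. It was -0.26 with normexp background correction and quantile normalisation and -0.27 in the authors' processed values. The dim Myh8 probe gave -0.090, -0.074, -0.094 and 0.19 with EXO-Post BSA and -0.46, 0.30 and -0.26 with EXO-Post Palm. Here the groups overlapped and the log2 fold change was -0.13 (95% interval -0.66 to 0.41). Its sign rested on 1 array, since it was 0.033 without EXO-Post Palm replicate 1, and it was -0.35 without replicate 2 and -0.41 with slide as a block. The difference between the 2 Myh8 probes was not tested.

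Myh3, the embryonic heavy chain, had lower values with EXO-Post Palm at both of its probes. The bright probe read 6.86, 6.46, 6.31 and 6.54 with EXO-Post BSA and 6.05, 5.99 and 6.21 with EXO-Post Palm, a difference of -0.46 on the log2 scale (limma adjusted p = 0.512, standard error 0.21). Its groups were 0.10 apart, less than the SD of 0.23 among the EXO-Post BSA arrays. The dim probe, 617 bases away, read 6.62, 6.32, 6.41 and 6.66 against 5.99, 6.26 and 5.56. The difference was -0.57 (limma adjusted p = 0.464, standard error 0.23), with the groups 0.060 apart. Both Myh3 probes thus gave a mean close to 70% of the EXO-Post BSA level (72.7 and 67.5%), and in neither did the groups overlap. They ordered the EXO-Post Palm arrays differently, since replicate 3 was the highest at the bright probe and the lowest at the dim one. Without that array the differences were -0.52 at the bright probe and -0.38 at the dim one.

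Myl4, the embryonic and atrial essential light chain, was split among the EXO-Post Palm arrays. Its values were 8.04, 8.28, 8.27 and 7.99 with EXO-Post BSA and 7.54, 8.59 and 8.59 with EXO-Post Palm. Replicate 1 of EXO-Post Palm was the lowest of all 7 arrays, and replicates 2 and 3 were the highest. The SD was 0.60 in EXO-Post Palm and 0.15 in EXO-Post BSA. The log2 fold change was 0.095 (95% interval -0.56 to 0.76), and it turned to -0.097 with slide as a block and -0.13 with normexp. The 75th percentile that signals were divided by ran the other way. It was 1621 on EXO-Post Palm replicate 1, the highest of the 7 arrays, and 648.3 and 549.4 on replicates 2 and 3, the lowest. The part of this scaling in the split was not tested.

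**Figure D2:**
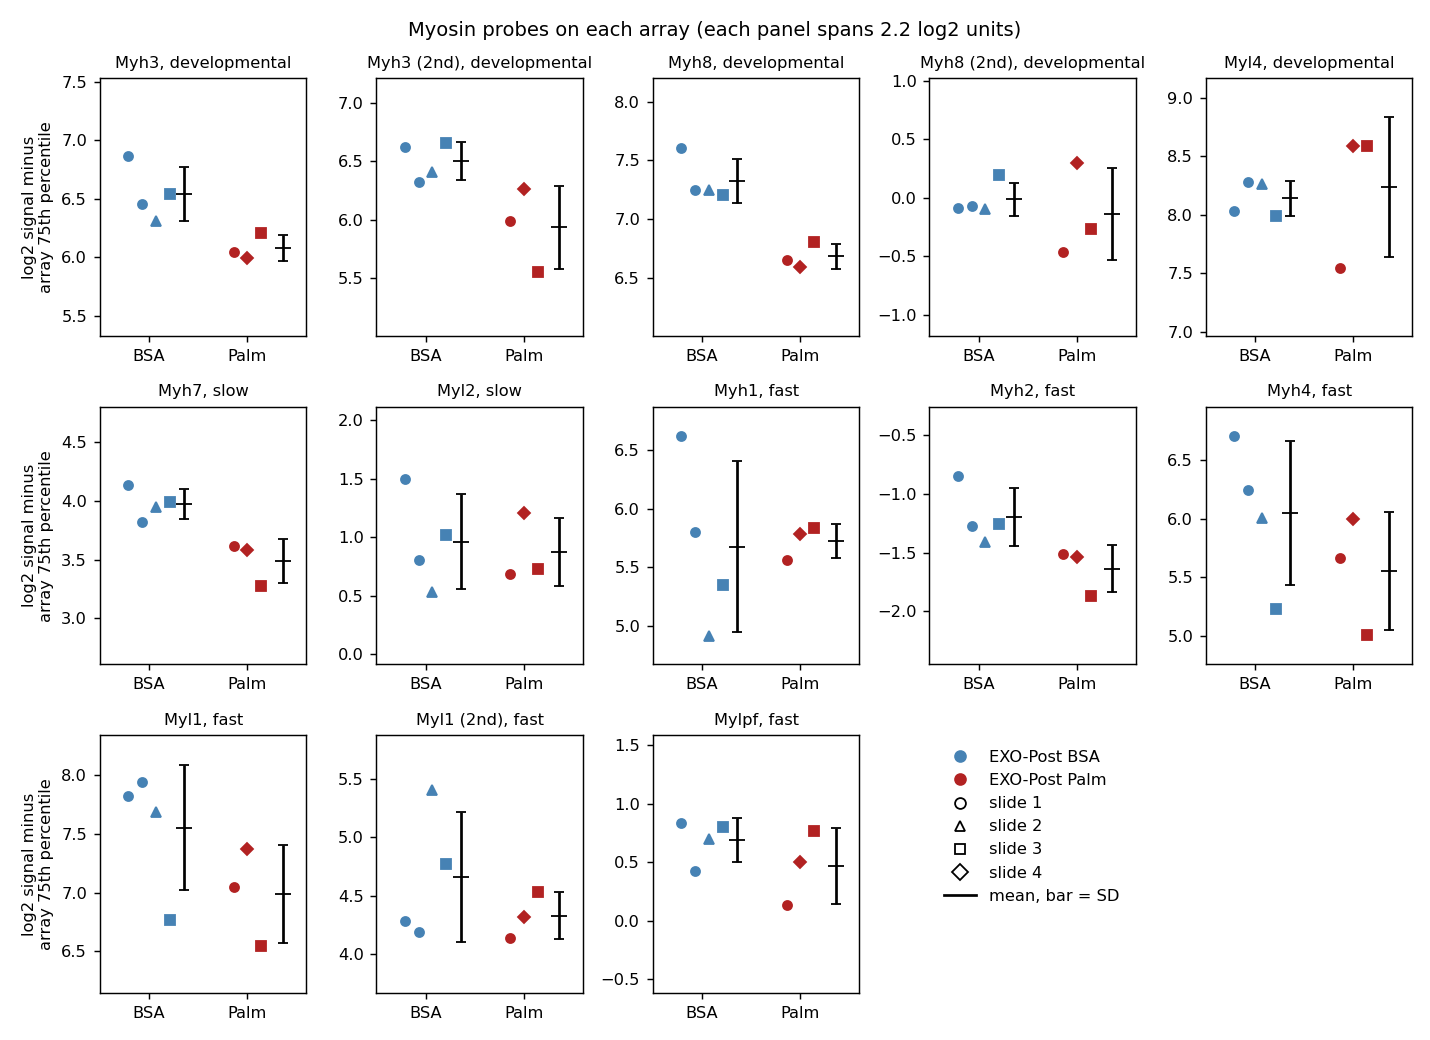
Log2 signal minus the 75th percentile of the array (vertical axis, 2.2 units in each panel) for each of the 13 myosin probes on each of the 7 arrays; symbols give the slide, the horizontal tick and bar the mean and SD, and 2nd the dimmer probe of a gene. The groups are apart in 5 panels (both Myh3, the first Myh8, Myh7 and Myh2) and overlap in the others, with the widest spread of EXO-Post BSA arrays for Myh1 (SD 0.73).

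Of the slow chains, the heavy chain Myh7 lay below all controls on every EXO-Post Palm array and the light chain Myl2 did not. Myh7, also the main heavy chain of adult human ventricle, read 4.14, 3.82, 3.95 and 3.99 with EXO-Post BSA and 3.62, 3.58 and 3.27 with EXO-Post Palm. The groups were 0.20 apart, with SDs of 0.13 and 0.19. The level with EXO-Post Palm was 71.4% of the other, a log2 fold change of -0.49 (95% interval -0.94 to -0.036, exact permutation p = 0.0286, limma adjusted p = 0.465). It ranged from -0.55 to -0.38 over the 19 alternative settings. Myl2, the slow regulatory light chain, read 1.49, 0.81, 0.53 and 1.02 against 0.69, 1.21 and 0.73. These values overlapped throughout, and the log2 fold change of -0.089 (95% interval -0.71 to 0.54) changed sign without EXO-Post BSA replicate 1, to 0.088.

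The 5 fast genes differed in the spread of their replicates. Myh2, the heavy chain of fast oxidative fibres, read -0.84, -1.27, -1.41 and -1.26 with EXO-Post BSA and -1.51, -1.54 and -1.87 with EXO-Post Palm. The groups were 0.098 apart and the log2 fold change was -0.44 (95% interval -0.94 to 0.060, exact permutation p = 0.0571, limma adjusted p = 0.556). In the authors' processed values it was -0.67.

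Myh4, the chain of the fastest glycolytic fibres, read 6.70, 6.25, 6.00 and 5.23 with EXO-Post BSA and 5.66, 5.99 and 5.01 with EXO-Post Palm. The lowest array of each group was the one on slide 3. The log2 fold change of -0.49 (95% interval -1.35 to 0.36) was smaller than the SD of 0.62 within EXO-Post BSA. It was -0.22 when the EXO-Post Palm array of that slide was left out and -0.76 when its EXO-Post BSA array was. Myl1, the fast essential light chain, had the same order of arrays on slide 3. Its bright probe read 7.82, 7.94, 7.69 and 6.77 against 7.04, 7.37 and 6.54. It had a log2 fold change of -0.57 (95% interval -1.33 to 0.19, limma adjusted p = 0.618), which was -0.35 without EXO-Post Palm replicate 3. The dim Myl1 probe, annotated to another Myl1 transcript than the bright one, read 4.29, 4.19, 5.40 and 4.77 against 4.14, 4.32 and 4.54. There EXO-Post BSA replicate 4 stood above replicates 1 and 2 rather than below them, and the log2 fold change was -0.33.

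Myh1, the chain of intermediate fast fibres, ranged most among the controls. It read 6.62, 5.80, 4.91 and 5.35 with EXO-Post BSA, a range of more than 3-fold in signal, and 5.56, 5.78 and 5.84 with EXO-Post Palm. All EXO-Post Palm values lay within the EXO-Post BSA range, and the log2 fold change of 0.052 (95% interval -0.80 to 0.91) was -0.17 with slide as a block and -0.0069 when arrays were scaled to their median. Mylpf, the fast regulatory light chain, read 0.84, 0.43, 0.70 and 0.80 against 0.13, 0.50 and 0.77. EXO-Post Palm replicate 1 was the lowest of the 7 arrays and replicate 3 lay inside the control range. The log2 fold change was -0.22 (95% interval -0.74 to 0.29), and -0.056 without EXO-Post Palm replicate 1.

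The slides were examined as batches. Within slide 1, with EXO-Post Palm replicate 1 alone against EXO-Post BSA replicates 1 and 2, all 13 probes were lower, by differences of -0.10 to -0.84. That EXO-Post Palm array had a 75th percentile of 1621 intensity units, against 1159 and 903.4 on these controls. Within slide 3, with 1 array a group, 11 of 13 were lower and Myl4 (0.59) and Myh1 (0.48) were higher. With slide as a block all 13 were lower and none passed, the lowest adjusted p being 0.458, for the dim Myh3 probe. This fit leaves EXO-Post Palm replicate 2 and EXO-Post BSA replicate 3 out of the group difference. It combines the differences within slides 1 and 3 and is not separate from them. Taken as deviations from the mean of the controls, the 10 genes had a median of -0.44, -0.19 and -0.43 on the 3 EXO-Post Palm arrays. On the control arrays it was 0.30 for replicate 1 and between -0.093 and -0.061 for the other 3, so EXO-Post BSA replicate 1 lay highest. That array was above the control mean in 9 of 10 genes.

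Whether the balance of isoforms shifted was examined with 5 pairs of genes, as the difference of their log2 signals within each array. No difference passed for any of the 5 pairs (exact permutation test over 35 ways to part the arrays, 2-sided, adjusted p = 0.943 for each pair). The smallest p that this test allows is 0.0286, which becomes 0.143 for a single pair after adjustment over 5, so that 1 shifted pair alone could not have passed 0.05. Slow Myh7 minus embryonic Myh3 was -2.57 ± 0.16 (SD, n = 4) among the controls and -2.59 ± 0.30 (SD, n = 3) after EXO-Post Palm, a shift of -0.027 (standard error 0.17). Fast Myh4 minus embryonic Myh3 shifted by -0.032 (standard error 0.44), and slow Myh7 minus fast Myh4 by 0.0049 (standard error 0.39). The group differences of Myh3, Myh7 and Myh4 themselves were -0.46, -0.49 and -0.49, but the pairs with Myh4 had larger standard errors than the pair without it.

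The light chain pairs had larger shifts and larger errors. Myl4 minus Myl1 was 0.22, 0.34, 0.58 and 1.22 on the EXO-Post BSA arrays and 0.50, 1.21 and 2.04 on the EXO-Post Palm arrays. The highest array of each group was on slide 3. The shift was 0.66 (standard error 0.46, exact permutation p = 0.257 before adjustment), with 0.22 within slide 1 and 0.82 within slide 3. Slow Myl2 minus fast Mylpf shifted by 0.14 (standard error 0.28), and by -0.088 with slide as a block.

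**Figure D3:**
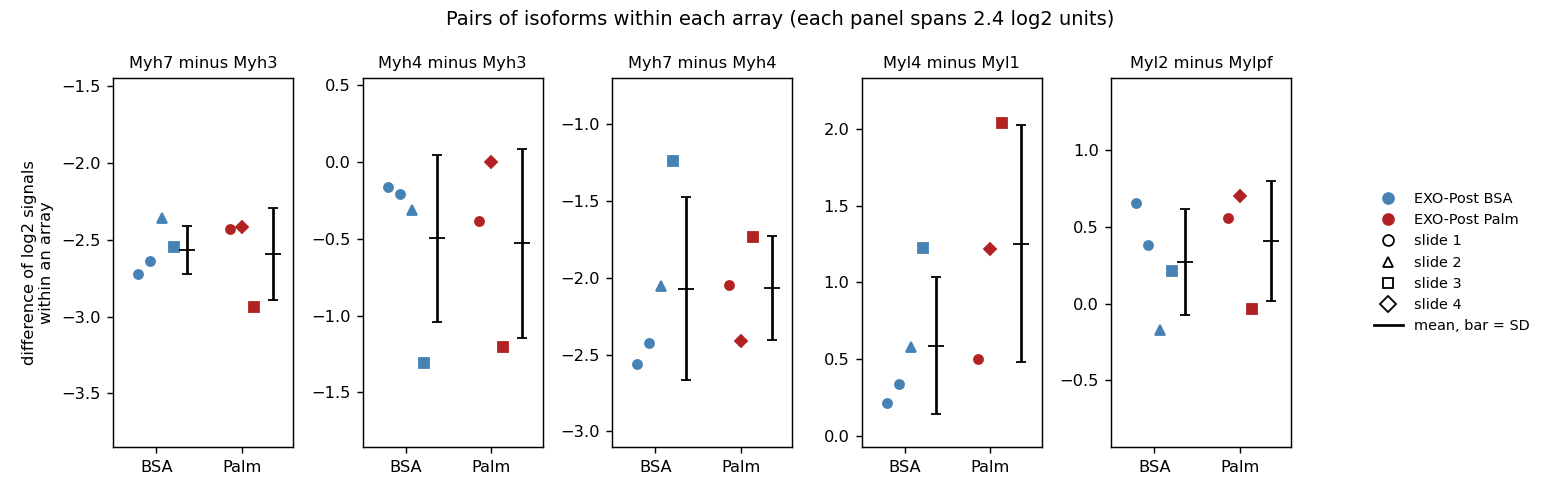
Difference of the log2 signals of 2 myosin genes within each array (vertical axis, 2.4 units in each panel) for 5 pairs, on each of the 7 arrays, with symbols for the slide and mean with SD beside them. The groups overlap in every panel, and the array on slide 3 is the lowest of each group for Myh4 minus Myh3.

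Myh3, Myh2, Myh1, Myh4 and Myh8 lie in this order in a cluster on mouse chromosome 11, with 206.2 kb from the first bright probe to the last on mm9. Their log2 fold changes in this order were -0.46, -0.44, 0.052, -0.49 and -0.65. By their bright probes, the first and last of these members, both developmental, and Myh2 had groups that did not overlap. Myh1 and Myh4 had groups that did, as did the dim Myh8 probe. RefSeq promoter windows (GRCm38.p6, 250 bases before to 50 after each start) were found for all 10 members. The longest run of letters common to the 250 upstream bases of Myh2, Myh1, Myh4 and Myh8 was TTCTAATTATATCC, 14 letters long, set in capitals below. Either strand of this run occurred in 4 of 32851 windows (0.0122%). These were the 4 windows from which it was picked, so their matches were set by the choice. The Myh3 window, which had no part in the choice, lacked it. How often a run of this length is met by chance was not tested. The run began 125, 160, 158 and 54 bases before the start of Myh2, Myh1, Myh4 and Myh8. The stretches are shown because they are what the 4 neighbouring genes have in common before their starts.
Myh2, chr11:67170862-67170935, plus strand: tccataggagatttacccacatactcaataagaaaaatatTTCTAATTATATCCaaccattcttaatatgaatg
Myh1, chr11:67199902-67199975, plus strand: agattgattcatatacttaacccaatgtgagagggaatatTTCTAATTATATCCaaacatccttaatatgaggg
Myh4, chr11:67237614-67237687, plus strand: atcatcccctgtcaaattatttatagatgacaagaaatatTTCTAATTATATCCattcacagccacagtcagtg
Myh8, chr11:67277030-67277103, plus strand: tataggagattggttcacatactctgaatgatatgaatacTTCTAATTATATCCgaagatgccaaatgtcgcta

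The same windows were searched for motifs of muscle transcription factors. The E-box CAGCTG, which is its own reverse complement and is bound by MyoD and myogenin, occurred in windows of 4 of 10 members (Myh4, Myl1, Myl2 and Mylpf) and in 16.3% of all windows. The MEF2 consensus, also the same on both strands, occurred in 3 of 10 (Myh1, Myh4 and Myh8) and in 3.19% of all windows. CATTCC on either strand, the core letters bound by TEAD factors, occurred in 4 of 10 (Myh1, Myh4, Myh7 and Myl1) and in 14.7%. Among the genes whose groups did not overlap, Myh3 and Myh2 had none of these motifs in the window, while Myh8 had MEF2 and Myh7 CATTCC. Myl4, whose groups overlapped, had none either. A match is no more than a match of letters.

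Related genes were described by lists, with the 2 largest differences in each direction. None of the lists of muscle structure and regulation held a probe that passed. The other muscle myosins had 5 of 8 genes tested. Myh13 apart, the tested genes were all lower, with log2 fold changes from -0.49 to -0.13. They included Myl6b (-0.49), an essential light chain of slow muscle. For Myh13, the extraocular heavy chain, no fold is given, because it was well above background on 3 EXO-Post BSA arrays and 1 EXO-Post Palm array and so entered the test through the group in which it was high. The non-muscle and smooth muscle myosins had 7 of 9 genes tested, 3 higher and 4 lower, median -0.32. Myl9, a regulatory light chain of smooth muscle and non-muscle myosin, was at -0.90 (limma adjusted p = 0.198) and Myh14 at -0.43, while Myh10 was at 0.23. Myh9 was at 0.70, with the spot of EXO-Post BSA replicate 3 excluded, and the value rested on EXO-Post BSA replicate 4, without which the difference was 0.036.

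Thick filament partners, the proteins that fold, bind or modify myosin, had 5 of 14 tested genes higher and 9 lower, median -0.13. Unc45b, the chaperone that folds the myosin head, read 0.98, 0.63, 0.77 and 0.75 with EXO-Post BSA and -0.087, -0.45 and 0.21 with EXO-Post Palm. Its groups did not overlap, and the log2 fold change was -0.89 (limma adjusted p = 0.190, standard error 0.22). Mybpc1, slow myosin binding protein C, was at -0.66, and Mybpc2, its fast counterpart, at 0.49. Mylk4, a myosin light chain kinase, was at 0.30.

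The non-myosin genes of each fibre class were set beside the myosins of that class, whose medians were -0.44 (5 fast genes), -0.29 (2 slow genes) and -0.46 (3 developmental genes). The fast programme had 2 of 7 genes higher and 5 lower, median -0.21, from Tnnc2 (-0.33) and Tnni2 (-0.26), both fast troponins, to Actn3 (0.17) and Pvalb (0.58), the calcium buffer of fast fibres. All 7 genes of the slow programme were lower by small amounts, median -0.14, the farthest being Myoz2 (-0.23) and Atp2a2 (-0.18). The developmental programme had 1 of 5 tested genes higher and 4 lower, median -0.13. Actc1, the actin of embryonic skeletal muscle and heart, was at -0.93 (limma adjusted p = 0.341) and Tnnt2 at -0.49, against 0.41 for Chrng, the fetal subunit of the acetylcholine receptor. The 15 tested fibre type regulators had 7 higher and 8 lower and a median of -0.00020. Nfatc1, a calcineurin effector in slow fibres, was at -0.98 (limma adjusted p = 0.335) and Vgll2 at -0.77, while Eya1, a cofactor in the control of fast genes, was at 0.70. The myogenic factors Myog (-0.070) and Myod1 (0.033) were near 0 on these arrays. By qRT-PCR, the paper reports both as lower in cells treated with EXO-Post Palm, and the reason for the difference was not tested.

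**Figure D4:**
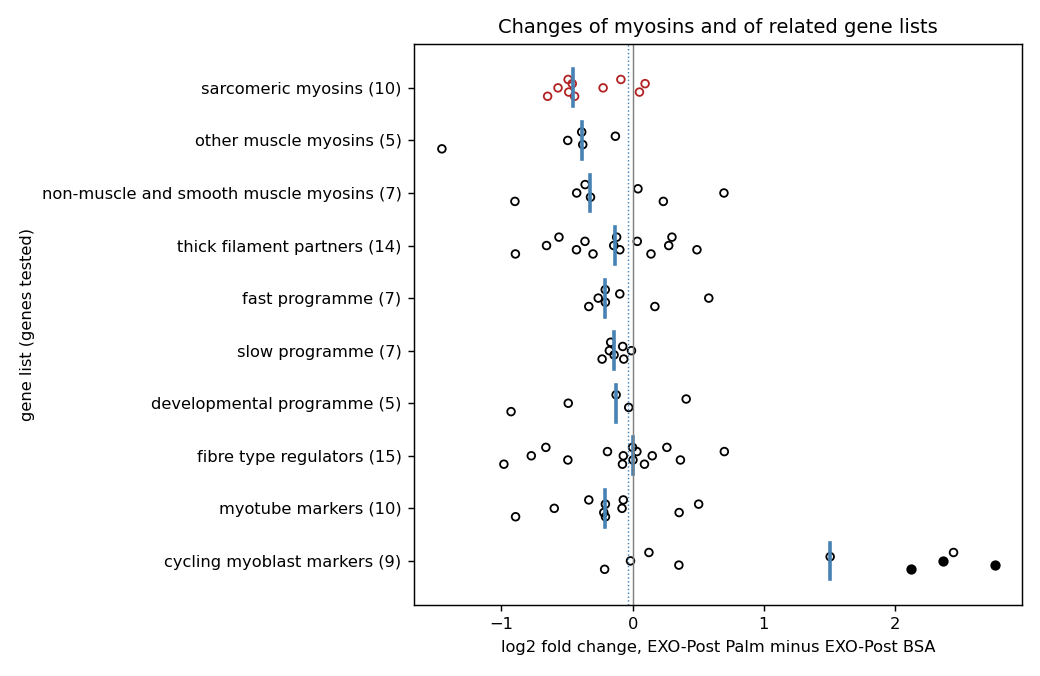
Log2 fold change (EXO-Post Palm minus EXO-Post BSA) of each tested gene in 10 lists, 1 circle per gene and filled where the limma adjusted p was under 0.05; the blue bar is the median of the list and the dotted line that of all genes tested (-0.031). The sarcomeric myosins have a median of -0.45, and filled points appear in the list of cycling myoblast markers alone (3 genes). The other muscle myosins and their median include Myh13, whose fold the text does not give.

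Markers of other cells and states moved with the groups beside the myosins. Of the cycling myoblast markers 9 of 10 were detected on each array, and 3 were higher with EXO-Post Palm by limma (log2 fold changes of 2.12 for Mki67, 2.36 for Top2a and 2.76 for Ccnb1), with 7 of 9 tested genes higher, 2 lower and a list median of 1.50. The genes that passed are known for cell division. Cdk1 and Ccna2, also known for cell division, were higher too but did not pass. Pax7 (-0.21), Id1 (-0.016), Id2 (0.12) and Id3 (0.35), the members known from undifferentiated myoblasts, did not pass. The summed level of all 10 cycling myoblast markers was 8.57 to 9.66 times the 75th percentile with EXO-Post BSA. It was 13.8 to 27.6 times with EXO-Post Palm, and Myf5, a myoblast factor, was not detected on any array. Of the smooth muscle markers 4 of 5 were tested, and Cnn1 and Tagln were lower by limma, with a list median of -1.14. With slide as a block Tagln passed and Cnn1 did not (limma adjusted p = 0.0523). The summed level of all 5 smooth muscle markers was 125 to 177 with EXO-Post BSA and 67.8 to 130 with EXO-Post Palm. Myh11, the defining smooth muscle heavy chain, was not detected. The part of either list in the myosin values was not tested. The myotube markers had 2 of 10 genes higher and 8 lower, median -0.21, with none past the threshold. Des (0.50) and Ckm (0.35) were the highest and Chrna1 (-0.89) and Mb (-0.60) the lowest. Fibroblast markers had 3 of 6 higher and 3 lower, median -0.026, with none past the threshold, but single genes lay far apart. Col1a1 was at -1.64 (limma adjusted p = 0.0701) and Col1a2 at -1.05, both fibrillar collagen chains, while Lum was at 1.45 (limma adjusted p = 0.105) and Dcn at 0.34, both small proteoglycans of the matrix. No gene passed among the 3 cardiac, 2 endothelial and 2 macrophage markers tested, and no adipocyte marker was detected on enough arrays to be tested.

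As a description, the genes whose values over the 7 arrays were most like those of 3 heavy chains were listed by Pearson's r, among 17477 genes. These points include the difference between the groups. For Myh3 they were Gsk3a (0.991), Atf7ip (0.987), the unnamed probe A_55_P2049071 (0.985), AI464131 (0.983) and Clasp1 (0.979), and Myh8 came at rank 22 (0.950). For Myh7 they were LOC100044674 (0.980), Syn1 (0.979), ENSMUST00000066689 (0.975), Sirt7 (0.971) and Ppargc1a (0.969), and Myh2 was the nearest myosin at rank 132 (0.922). For Myh4 they were ENSMUST00000066505 (0.984), Greb1l (0.981), ENSMUST00000107819 (0.979), Trpc4ap (0.976) and Atl1 (0.975), and Myl1 came at rank 30 (0.939). Myl4 was least like the 3 heavy chains among the members, with r of -0.17, -0.39 and -0.090.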

How the data were processed

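The authors deposited the output of the Agilent scanner software for each array, with a background-subtracted processed intensity for each spot, and a second table of their own normalised log2 values. The intensities carry no normalisation between arrays. Per the labels, Agilent Feature Extraction 9.1 and limma were used, while the file headers give versions 10.7.3.1 and, for EXO-Post BSA replicate 3, 11.5.1.1. The build of the probe positions is mm9, per the array annotation. Here each intensity was taken to log2, and the 75th percentile over the array's 43020 non-control spots was subtracted. Spots marked as uneven or as outliers were left out, none of them a myosin spot. A probe entered the test when 75% or more of the arrays in a group showed it well above background (21589 of 39429). Condition alone was fitted in limma 3.58.1 (R 4.3.3) with Benjamini-Hochberg adjustment over all tested probes, 2-sided. Single probes and 5 gene pairs also had exact permutation tests, 2-sided. Each replicate is labelled biological, and nothing more is said of separate cultures, so p-values measure the spread between these samples. The named genes are all member probes and, for each list, the 2 largest differences in each direction. 1 further gene under this rule is left out of the text. Replicate numbers did not pair the samples, and no other pairing was tested. The members, lists and alternatives were chosen with earlier results of these data known, and the normexp setting and Myh9 without 1 array were added after the data were seen. Sequences came from the scanner files and from RefSeq (GRCm38.p6).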

Additional observations from a re-analysis of the deposited data

Results flagged for a closer look

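In 18 sets of 4 EXO-Post BSA values (13 probes and 5 gene pairs), 3 held an array far from the other 3, where chance gives about 5% of sets. For the bright Myh8 probe, EXO-Post BSA replicate 1 was at 7.61 and the others between 7.21 and 7.25. For the dim Myh8 probe, EXO-Post BSA replicate 4 was at 0.19 and the others between -0.094 and -0.074. For Myh4 minus Myh3, EXO-Post BSA replicate 4 was at -1.31 and the others between -0.31 and -0.16. EXO-Post Palm replicate 3, on the same slide as that array, was at -1.20.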

How the results depend on the processing

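None of the 13 myosin probes passed under any of the 19 settings run, while the count over all probes ranged from 0 (no filter, the methods' t-test, the replicate block, or without EXO-Post BSA replicate 1) to 202 (without EXO-Post Palm replicate 2), against 115. With no filter, the lowest adjusted p of the myosins was 0.952. Normexp on the mean signal was not run because 1 array lacks that signal, and the median signal took its place. Myh3, Myh8, Myh7, Myh2, Myh4, Myl1 and Mylpf, each by its brighter probe, were lower with EXO-Post Palm in all settings. The median over the 10 genes was -0.31 with normexp, -0.33 in the authors' processed values, -0.39 with quantile normalisation, -0.51 with the median of each array, and -0.50 to -0.30 with 1 array left out, the smallest without EXO-Post BSA replicate 1.

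The replicate numbers did not mark pairs (correlations of 0.12, -0.15 and -0.15). Each EXO-Post Palm array was most like the control of the next number. The correlations were 0.31 for EXO-Post Palm replicate 1 with EXO-Post BSA replicate 2, 0.20 for replicates 2 and 3, and 0.18 for replicates 3 and 4. The first and last of these pairs shared a slide. Such a pairing was not tested. With the replicate block, without EXO-Post BSA replicate 4, the median was -0.46 and no myosin probe passed. The direction changed for small differences, and the cause was not tested. Myl4 was -0.13 with normexp, -0.065 in the authors' values and -0.097 with slide as a block. Myh1 was -0.0069 with the median of each array, -0.011 with array weights, -0.17 with slide as a block and -0.054 with the replicate block. With 1 array left out Myl4 ranged from -0.079 to 0.44, Myl2 from -0.25 to 0.088 and Myh1 from -0.20 to 0.37. Leaving out 1 array, Myh7 minus Myh3 ranged from -0.12 to 0.15, Myh4 minus Myh3 from -0.30 to 0.31, Myh7 minus Myh4 from -0.16 to 0.28, Myl2 minus Mylpf from -0.013 to 0.36 and Myl4 minus Myl1 from 0.27 to 1.04. Myh4 minus Myh3 was 0.0026 with normexp and 0.096 in the authors' values. Myh7 minus Myh4 was -0.15 with normexp, -0.015 with quantile normalisation and -0.20 in the authors' values. Myl2 minus Mylpf was -0.088 with slide as a block. With 4 and 3 arrays, all these values are imprecise.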
